A study of Bos taurus with 6 samples.

Results

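The muscle microRNAs (miRNAs) miR-1, miR-133 and miR-206, with the heart and slow-fibre miRNAs miR-208 and miR-499, were looked up in cultured fat cells of cattle. Members were taken by name, not by a cut on their values, from the known miRNA rows of a small RNA count table, with earlier results of these data known. Of 8 names looked up, 6 had a row among 771 known miRNA rows and 2213 rows of all kinds. These were bta-miR-1, bta-miR-206, bta-miR-133a, bta-miR-133b, bta-miR-133c and bta-miR-499, written below without the species prefix. No row was found for miR-208a and miR-208b, so they were not analysed here. Small RNA of 3 adipocyte libraries was compared with that of 3 preadipocyte libraries, the design's only contrast. Both groups came from Holstein adipose tissue, were at passage 4 to 6 and were kept in F12/DMEM medium supplemented with fetal bovine serum (10%) and antibiotics (1%). The culture text, the same on all 6 samples, adds an induction of preadipocytes with insulin, dexamethasone, rosiglitazone and IBMX, a mixture that turns precursors into fat cells, and the cell type label alone tells the groups apart. The labels do not tell whether the replicates are separate animals or cultures, and p-values therefore rest on a spread that could be technical. The table holds small RNA, so the messenger RNAs that define adipocytes were not analysed here.

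A miRNA is a short RNA that pairs with messenger RNAs through a stretch near its 5′ end, the seed, and lowers their translation or stability. miR-1 and miR-206 share a seed and favour muscle differentiation, whereas the miR-133 miRNAs, with another seed, are made from the same transcripts as miR-1 or miR-206 and are known for keeping myoblasts dividing. In mice, miR-133 also represses Prdm16, a factor that steers precursors towards brown fat and away from muscle. miR-499 and miR-208 lie within myosin heavy chain genes. In RefSeq's ARS-UCD2.0 gene annotation, used here for names and neighbours only, MIR1-1 lay near MIR133A-1 and MIR133C, which overlap each other, MIR1-2 lay near MIR133A-2 in the gene MIB1, MIR206 lay near MIR133B, and MIR499 lay in MYH7B. Cultured fat precursors are not a muscle cell type, and the members made up a small part of the miRNA reads.

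The 6 libraries held 14525284 to 22283754 reads of known and predicted miRNAs. Values of a group are given in the order of replicates 1, 2 and 3. The members together took 833, 780 and 734 reads in the adipocyte libraries, or 55.4, 51.6 and 38.4 RPM (reads-per-million of miRNA reads). In the preadipocyte libraries they took 438, 411 and 1064 reads, or 25.1, 28.3 and 47.7 RPM. The groups overlapped through preadipocyte replicate 3. That library also had the lowest share of table reads in exon, intron, intergenic and repeat rows, 5.29%, against 18.5% and 18.9% in the other preadipocyte libraries and 8.21% to 12% in adipocytes. By mean RPM over the 6 libraries, miR-1 stood at rank 165 of the 771 known rows, miR-499 at 189, miR-133a at 247, miR-206 at 440, miR-133b at 496 and miR-133c at 688.

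Levels below are counts-per-million of miRNA reads (CPM) after scaling with edgeR's TMM factors, which set libraries on a scale where most miRNAs do not differ, and differences are log2 of adipocytes over preadipocytes. The factors were 1.02 to 1.40 in adipocytes and 0.734 to 0.846 in preadipocytes, so that the choice of scaling moves every difference. The median log2 difference of all 414 tested miRNAs was -0.02 with TMM factors, -0.31 with upper-quartile factors and 0.62 with library totals alone. Only miR-1, miR-133a and miR-499 passed the filter on low counts, and miR-206, miR-133b and miR-133c, with 34, 20 and 3 reads in all 6 libraries, were left out of the fit. The threshold was a Benjamini-Hochberg (BH) adjusted p of 0.05 over all tested miRNAs.

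**Figure D1:**
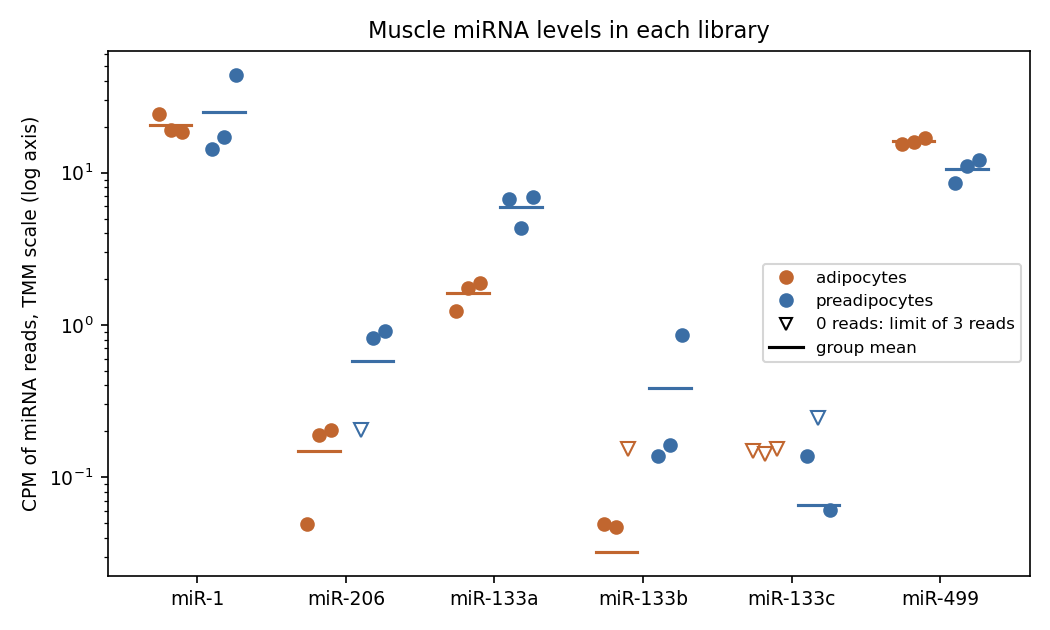
CPM of each muscle miRNA on the TMM scale (log axis) in each library, adipocytes left of preadipocytes, with lines at group means; open triangles mark libraries with 0 reads, drawn at the limit of 3 reads. The 3 adipocyte libraries lie below the 3 preadipocyte libraries for miR-133a (at most 1.89 CPM, against at least 4.32 CPM) and above them for miR-499 (at least 15.5 CPM, against at most 12.1 CPM), and the groups overlap for miR-1.

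In adipocytes miR-133a fell to 0.272 times its preadipocyte mean on the TMM scale and to 0.420 times it per miRNA reads without TMM factors, miR-499 was higher in every library without passing the test, and miR-1 did not differ beyond the spread of its libraries. Of the 3 members tested, 1 passed the threshold, as did 26 of all 414 tested miRNAs (6.28%). Past the threshold and lower in adipocytes were 1 of the 3 members and 2.42% of all tested miRNAs. Adipocytes and preadipocytes lay apart without overlap in TMM-scaled levels of miR-133a and miR-499, and so they did for 44.7% of all tested miRNAs, so the lack of overlap alone says little of these members.

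miR-1, the most abundant member, is a driver of skeletal and heart muscle differentiation. The adipocyte libraries held 493, 402 and 362 reads of bta-miR-1, against 211, 210 and 722 in the preadipocyte libraries. In CPM these were 24.4, 19.0 and 18.5 (adipocytes) and 14.4, 17.1 and 44.1 (preadipocytes). Preadipocyte replicate 3 was the highest of all 6 libraries and the other preadipocyte libraries were the lowest. The adipocyte mean was 20.7 ± 3.28 and the preadipocyte mean 25.2 ± 16.4 CPM (SD, n = 3 each), for a log2 difference of -0.29 (SE 0.49, adjusted p = 0.693 in edgeR). Its sign was decided by preadipocyte replicate 3 and by the scaling. Without that library the difference was 0.38 (adjusted p = 0.329 in edgeR), and with library totals alone it was 0.41 (adjusted p = 0.556 in edgeR).

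miR-206, the skeletal muscle relative of miR-1, was near the detection limit. The adipocyte libraries held 1, 4 and 4 reads of bta-miR-206, against 0, 10 and 15 in the preadipocyte libraries. The 0 of preadipocyte replicate 1 allowed a level of up to 0.205 CPM, which covers the highest adipocyte level of 0.205 CPM. The adipocyte mean of 0.148 ± 0.0854 and the preadipocyte mean of 0.577 ± 0.502 CPM came from overlapping groups (exact two-sided permutation p = 0.4, where 0.1 is the smallest that 3 libraries against 3 can give). Summed over libraries, there were 9 adipocyte reads against 25 preadipocyte reads. Over the summed TMM-scaled library sizes of each group they gave a ratio of 0.256. Its 95% counting interval of 0.105 to 0.567 leaves out the spread between libraries. With reads of miR-1 and miR-206 added up as the mir-1 family of the table, the log2 difference was -0.31 (SE 0.49, adjusted p = 0.672 in edgeR), and it was 0.35 without preadipocyte replicate 3.

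The miR-133 miRNAs restrain muscle differentiation while myoblasts divide. For miR-133a, whose reads made up 364 of the 387 that the family had, the adipocyte libraries held 25, 37 and 37 reads of bta-miR-133a, against 98, 53 and 114 in the preadipocyte libraries. All adipocyte libraries lay below all preadipocyte libraries. The exact 95% binomial intervals, which cover counting error only, were 1.72 to 3.37 RPM in adipocyte replicate 2, the highest of its group in RPM, and 2.73 to 4.77 RPM in preadipocyte replicate 2, the lowest of its group, and these overlapped. On the TMM scale the CPM were 1.24, 1.75 and 1.89 for adipocytes (mean 1.63 ± 0.344) and 6.70, 4.32 and 6.97 for preadipocytes (mean 5.99 ± 1.46). The log2 difference was -1.88 (SE 0.34, adjusted p = 0.0293 in edgeR). In bulk RNA, fewer cells that make a miRNA cannot be told apart from less of it in each cell.

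The size of the miR-133a difference depended on the scaling, and its call on single libraries. With library totals alone the log2 difference was -1.25 (adjusted p = 0.0364 in edgeR), with upper-quartile factors -2.16 (adjusted p = 0.0253 in edgeR) and with limma on log2 of deposited TPM -1.04 (adjusted p = 0.0388 in limma). Leaving out 1 library at a time gave log2 differences of -2.17 to -1.72, and the call was lost without any of the 3 adipocyte libraries, without preadipocyte replicate 1 or without preadipocyte replicate 2 (edgeR adjusted p of 0.0649 to 0.140), where the number of all miRNAs called also dropped to between 1 and 8. Without preadipocyte replicate 3 the difference was -1.75 and passed (adjusted p = 0.0198 in edgeR). Subtracting the median of all miRNAs takes out the scaling by construction, so that the values of -1.87 with library totals alone, -1.86 with TMM factors and -1.85 with upper-quartile factors say nothing of stability; with limma on TPM the value relative to the median was -1.50.

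miR-133b is made with miR-206. The adipocyte libraries held 1, 1 and 0 reads of bta-miR-133b, against 2, 2 and 14 in the preadipocyte libraries. By reads the groups did not overlap, but 14 of the 18 preadipocyte reads came from preadipocyte replicate 3. Summed reads over the summed TMM-scaled library sizes of each group gave a ratio of 0.079, with a 95% counting interval of 0.00889 to 0.330. That interval leaves out the spread between libraries, and the exact two-sided permutation p over libraries was 0.1. The adipocyte mean was 0.0323 ± 0.028 and the preadipocyte mean 0.385 ± 0.408 CPM (n = 3 each), a difference of -0.353 CPM that was -0.117 CPM without preadipocyte replicate 3. The 0 of adipocyte replicate 3 allowed up to 0.153 CPM, above the 0.137 CPM that 2 reads gave in preadipocyte replicate 1, so a difference between those libraries was not detectable at this depth.

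miR-133c had 0 reads in all 3 adipocyte libraries, each of which allowed 0.142 to 0.153 CPM, and 2, 0 and 1 reads in the preadipocyte libraries. Both groups were at or under the limit of 3 reads, and no fold is given. Its gene overlaps MIR133A-1 in RefSeq, and how reads were divided between such genes is not stated in these sources. Summed with miR-133c, miR-133a differed by -1.89 (SE 0.34, adjusted p = 0.0293 in edgeR). All 3 miR-133 rows summed to 26, 38 and 37 adipocyte reads and to 102, 55 and 129 preadipocyte reads, and the sum fell by 1.95 on the log2 scale (SE 0.35, adjusted p = 0.0293 in edgeR). This call too was lost without any 1 library other than preadipocyte replicate 3 (edgeR adjusted p of 0.0631 to 0.140).

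miR-499, which lies in a myosin gene of slow and heart muscle, was the second most abundant member. The adipocyte libraries held 313, 336 and 331 reads of bta-miR-499, against 125, 136 and 198 in the preadipocyte libraries. Every adipocyte library lay above every preadipocyte library, and the adipocyte libraries were close to each other. In CPM these were 15.5, 15.9 and 16.9 for adipocytes (mean 16.1 ± 0.729) and 8.54, 11.1 and 12.1 for preadipocytes (mean 10.6 ± 1.83). The log2 difference was 0.61 (SE 0.28, adjusted p = 0.173 in edgeR), which did not pass. With library totals alone it was 1.25 and passed (adjusted p = 0.0268 in edgeR), and relative to the median of all miRNAs, which takes out the scaling by construction, it was 0.63 on both scales.

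**Figure D2:**
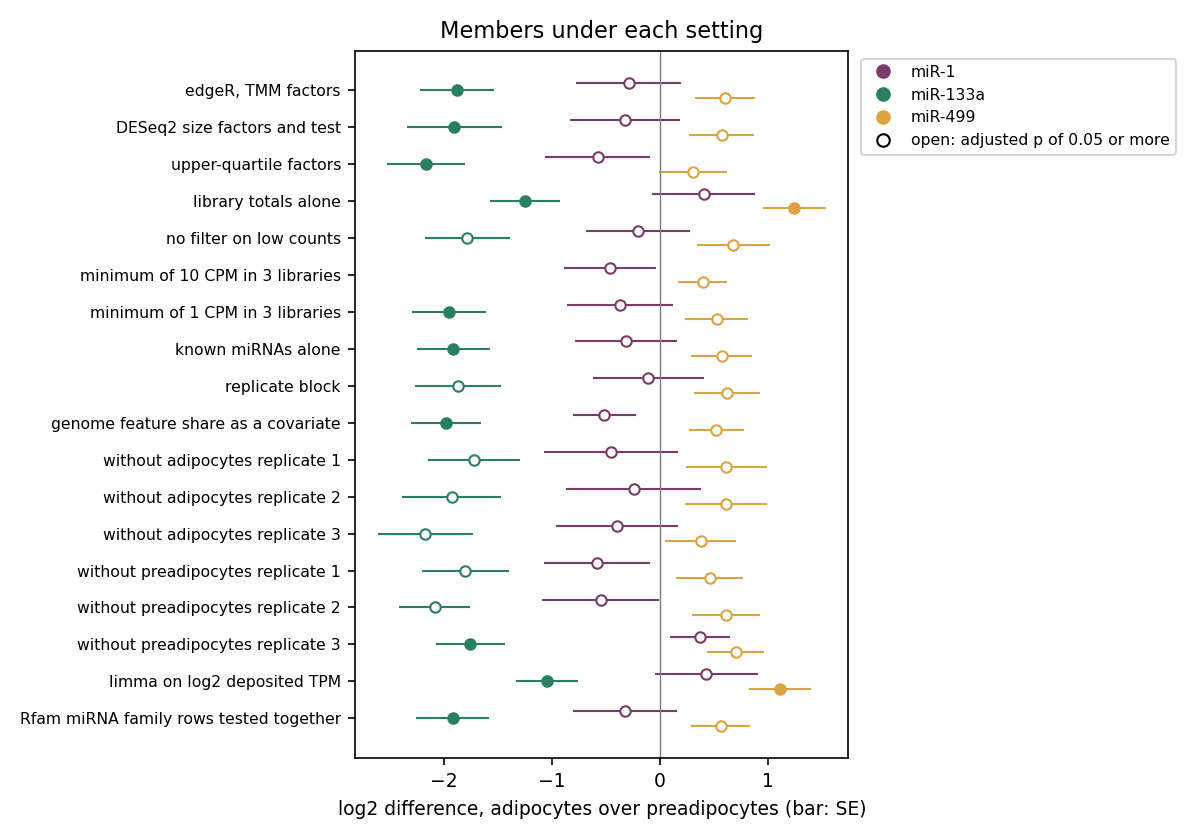
Log2 difference of miR-1, miR-133a and miR-499 (adipocytes over preadipocytes, bars show the SE) under each setting, filled where the BH-adjusted p was below 0.05. miR-133a lies between -2.17 and -1.04 in every setting that tested it, miR-499 between 0.31 and 1.25, and miR-1 on either side of 0.

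Ratios of members within a library do not depend on the scaling, and were computed after the values were seen. There were 19.7, 10.9 and 9.78 reads of miR-1 per read of miR-133a in the adipocyte libraries, against 2.15, 3.96 and 6.33 in the preadipocyte libraries. The groups did not overlap, although the genes of both miRNAs lie side by side, and the mean log2 ratio was 3.66 ± 0.54 in adipocytes and 1.91 ± 0.78 in preadipocytes (SD, n = 3 each), a difference of 1.75 or 3.35-fold (exact two-sided permutation p = 0.1).

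The ratio of miR-499 to miR-133a stood further apart. It was 12.5, 9.08 and 8.95 in the adipocyte libraries, against 1.28, 2.57 and 1.74 in the preadipocyte libraries. The log2 difference of this ratio was 2.48, or 5.57-fold (exact two-sided permutation p = 0.1, n = 3 each), and it was 2.24 to 2.74 with any 1 library left out. For miR-1 over miR-499 the ratios were 1.58, 1.20 and 1.09 in adipocytes and 1.69, 1.54 and 3.65 in preadipocytes, with overlapping groups (exact two-sided permutation p = 0.2, n = 3 each). That ratio was above 1 in all 6 libraries, but closest to it in adipocyte replicate 3, so the order of these members by read number was the same throughout. Over the 5 ratios computed, including those of family rows below, BH-adjusted p-values were 0.167 to 0.2.

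**Figure D3:**
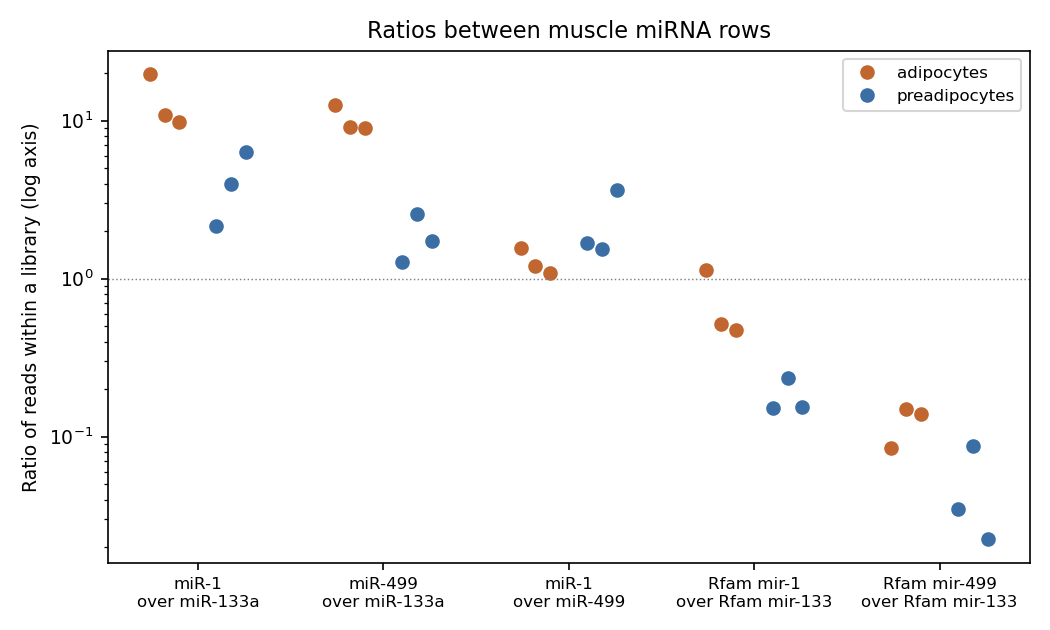
Ratios between reads of muscle miRNA rows within each library (log axis), adipocytes left of preadipocytes. Adipocytes lie above preadipocytes without overlap for miR-1 over miR-133a, miR-499 over miR-133a and Rfam mir-1 over Rfam mir-133.

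As a share of the members' own reads, miR-133a took 3.00%, 4.74% and 5.04% in adipocytes (exact 95% binomial intervals within 1.95% to 6.88%), against 22.4%, 12.9% and 10.7% in preadipocytes (intervals within 8.92% to 26.6%). The intervals of the groups did not meet (exact two-sided permutation p over libraries = 0.1, n = 3 each), but they cover counting error only. Within preadipocytes, the interval of replicate 1 (18.6% to 26.6%) did not meet those of replicates 2 (9.81% to 16.5%) and 3 (8.92% to 12.7%) either. miR-499 took 37.6%, 43.1% and 45.1% in adipocytes and 28.5%, 33.1% and 18.6% in preadipocytes (exact two-sided permutation p = 0.1, n = 3 each). The share of miR-1 averaged 53.4% ± 5.17 in adipocytes and 55.7% ± 10.6 in preadipocytes (exact two-sided permutation p = 0.9, n = 3 each).

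**Figure D4:**
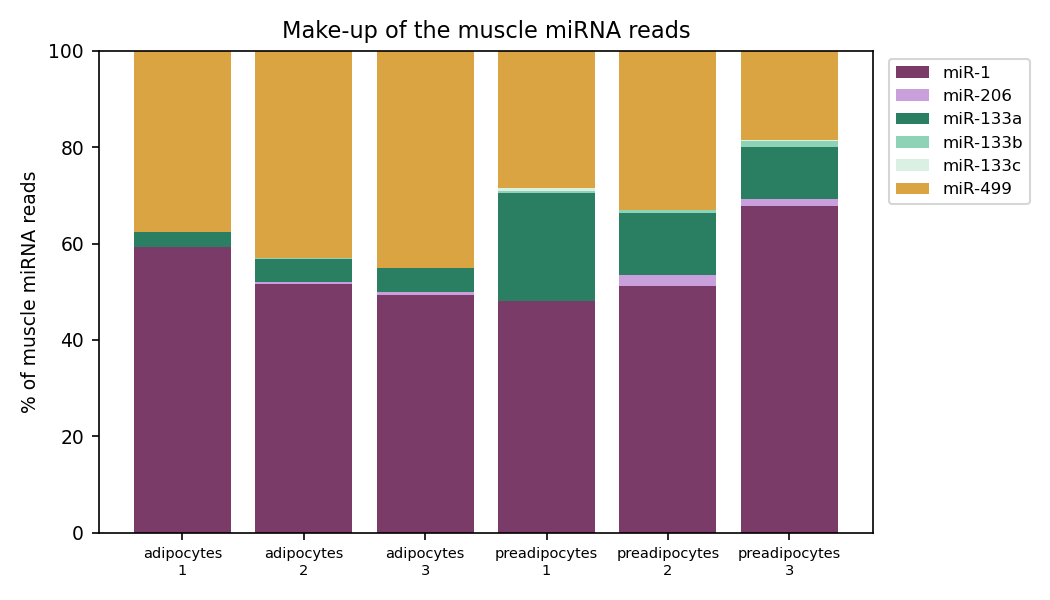
Share of each muscle miRNA in the members' summed reads (percent) in each library, adipocytes left of preadipocytes. The miR-133a share is 3.00% to 5.04% in adipocytes and 10.7% to 22.4% in preadipocytes.

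The table also counts reads by family of Rfam, a database of RNA families, in rows separate from the miRNA rows, and it is not known from these sources if a read can count in both kinds of row. The Rfam mir-133 row held 410, 314 and 380 adipocyte reads, against 888, 490 and 1251 preadipocyte reads. Each of these is several times the reads of the miR-133a row in the same library. Tested after the values were seen, together with the miRNA rows and 87 Rfam miRNA rows that passed the filter, it fell by 1.74 on the log2 scale (SE 0.35, adjusted p = 0.0416 in edgeR), in a fit where 5.59% of 501 rows passed.

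The Rfam mir-1 row held 467, 162 and 181 adipocyte reads, against 135, 115 and 193 preadipocyte reads. Here adipocyte replicate 1 stood highest and preadipocyte replicate 3 did not stand apart from its group as it did in the miR-1 row, and the log2 difference was 0.36 (SE 0.47, adjusted p = 0.611 in edgeR). The Rfam mir-499 row held 35, 47 and 53 adipocyte reads, against 31, 43 and 28 preadipocyte reads. On the TMM scale its log2 difference was -0.18 (SE 0.40, adjusted p = 0.760 in edgeR), opposite in sign to that of the miR-499 row. In RPM, without TMM factors, the Rfam row was 2.33, 3.11 and 2.77 in adipocytes and 1.78, 2.96 and 1.26 in preadipocytes. There its mean was higher in adipocytes with overlapping groups, so its sign depended on the scaling. The ratio of Rfam mir-1 to Rfam mir-133 reads was 1.14, 0.516 and 0.476 in adipocytes, against 0.152, 0.235 and 0.154 in preadipocytes, a log2 difference of 1.89 (exact two-sided permutation p = 0.1, n = 3 each). For Rfam mir-499 over Rfam mir-133 the log2 difference was 1.56 and the groups overlapped (exact two-sided permutation p = 0.2, n = 3 each).

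By Pearson's r of log2 CPM over the 6 libraries, the 5 of 362 other tested known miRNAs most like miR-133a were miR-181c, miR-2331-3p, miR-146a, miR-23a and miR-484 (r of 0.938 to 0.959). All 5 were lower in each adipocyte library than in any preadipocyte library. They were picked by likeness to miR-133a, whose groups lay apart, so this adds no evidence. The groups lay apart, in either direction, for 44.7% of all tested miRNAs. After the group means were taken out r was 0.29 to 0.68. Of these, miR-146a, a brake on inflammatory signalling, fell by 6.27 on the log2 scale (adjusted p = 0.0134 in edgeR), and miR-181c fell by 1.58 (adjusted p = 0.0481 in edgeR). The 5 most like miR-1 were miR-28, miR-424-5p, miR-2284z, miR-23b-5p and miR-450a (r of 0.904 to 0.943). All 5 were highest in preadipocyte replicate 3, as was miR-1, by which they were picked. In CPM, miR-424-5p was 1344 to 1385 in adipocytes and 1212, 917 and 6011 in preadipocytes. Between members r was 0.16 for miR-133a and miR-1, -0.86 for miR-133a and miR-499 and 0.21 for miR-1 and miR-499. These correlations share the library scaling and a group difference and are descriptions only.

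Other miRNAs described in muscle were looked up from lists of names. Of 27 names described in myogenesis, 23 had a row, and all 28 of their rows were tested. Of the 28, 2 rose, 1 fell and 25 did not pass, where 6.28% of all tested miRNAs passed in either direction, and the median log2 difference was -0.16, against -0.02 over all tested miRNAs. The 2 that rose were miR-199a-3p, with mean CPM of 6757 ± 931 (adipocytes) and 16.2 ± 6.83 (preadipocytes) (log2 difference 8.70, adjusted p = 2.62e-04 in edgeR), and miR-148a, with mean CPM of 1378 ± 236 (adipocytes) and 430 ± 130 (preadipocytes) (1.68, adjusted p = 0.0309 in edgeR). The gene of miR-199a-3p overlaps that of miR-3604, and the reads of both summed differed by 1.00 and did not pass (adjusted p = 0.0666 in edgeR). The one that fell was miR-24-3p, known to favour myoblast differentiation, with mean CPM of 2548 ± 653 (adipocytes) and 8739 ± 1517 (preadipocytes) (-1.78, adjusted p = 0.0242 in edgeR). The most abundant of the list, miR-27b, had mean CPM of 11097 ± 7248 (adipocytes) and 13909 ± 7907 (preadipocytes), and miR-27a-3p had mean CPM of 5657 ± 5894 (adipocytes) and 10295 ± 13403 (preadipocytes), and neither passed. The spread of both came from the same libraries. miR-27a-3p was highest in adipocyte replicate 2 and preadipocyte replicate 1 (12461 and 25771 CPM), where miR-27b was lowest (2786 and 4815 CPM). Their reads were not summed, so the joint level of both was not tested.

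Of the muscle-enriched miRNAs beyond the members, miR-378 had mean CPM of 4449 ± 1715 (adipocytes) and 2331 ± 1075 (preadipocytes) and did not pass (0.93, adjusted p = 0.177 in edgeR), and miR-486 had 28 reads in all 6 libraries. The smooth muscle miRNAs miR-143 and miR-145 summed to 19516 to 28626 (adipocytes) and 23928 to 42624 CPM (preadipocytes), and 0 of 2 passed in edgeR's test, with 1 of 2, miR-145, at an unadjusted p below 0.05 in edgeR (-1.64, adjusted p = 0.0637 in edgeR). Over all 414 tested miRNAs, 26 passed and 141 had an unadjusted p below 0.05 in edgeR.

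Of the marker miRNAs of endothelial, erythroid, liver and brain cells, 0 of 9 tested rows passed the threshold in edgeR, where 6.28% of all tested miRNAs passed. An unadjusted p below 0.05 in edgeR was found in 3 of these 9 rows and in 141 of all 414 tested miRNAs. The endothelial miR-126 arms summed to 43.0 to 67.9 (adipocytes) and 114 to 455 CPM (preadipocytes), and miR-126-3p differed by -2.20 (SE 0.60, adjusted p = 0.0637 in edgeR). The erythroid miR-451 had mean CPM of 0.601 ± 0.362 (adipocytes) and 3.06 ± 1.31 (preadipocytes) (-2.33, SE 0.64, adjusted p = 0.0637 in edgeR), while its neighbour miR-144 had 4 reads in all, none of them in preadipocytes. The blood cell miRNAs miR-223, miR-142 and miR-150 summed to 0.0473 to 0.102 (adipocytes) and 0.183 to 0.244 CPM (preadipocytes), within the counts of a few reads. The liver miRNA miR-122, which also circulates in serum, had 8 reads in all 6 libraries, and with miR-192 and miR-194 the list summed to 240 to 263 (adipocytes) and 219 to 351 CPM (preadipocytes). The brain list summed to 61.1 to 69.8 (adipocytes) and 54.1 to 96.0 CPM (preadipocytes), with 0 of 4 tested rows past the threshold in edgeR and 1 of 4, miR-219-5p, at an unadjusted p below 0.05 (1.73, adjusted p = 0.137 in edgeR). Most of that sum was miR-128, which the myogenesis list also holds, with mean CPM of 59.4 ± 4.70 (adipocytes) and 67.1 ± 18.6 (preadipocytes). The part of other cells, and of miRNAs carried by the bovine serum in the medium, in the miR-133a difference was not tested. A brown fat list holds miR-133a. Of its 8 other tested rows 0 passed in edgeR, where 6.28% of all tested miRNAs passed. Those with an unadjusted p below 0.05 in edgeR were 3 of these 8 rows and 141 of all 414 tested miRNAs. The 3 rows were miR-193a, miR-193a-3p and miR-196a. Unlike miR-133a they were higher in adipocytes, with log2 differences of 1.63, 3.20 and 0.85 (adjusted p of 0.0606, 0.0637 and 0.0955 in edgeR).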

How the data were processed

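Small RNA libraries of 3 adipocyte and 3 preadipocyte samples were made, per the labels' protocols, from gel-cut RNA of 18 to 30 nt, with PCR products selected at 100 to 120 bp. The submitters' processing notes list Bowtie2 without a version. The sources used here do not give the genome build, the miRNA release or how reads matching several miRNAs were counted. In the table, the deposited counts are whole reads per row, not normalized, and the deposited TPM values are the count over 1 constant per library, with a 0 written as 0.001. Known rows carry the type hairpin (420) or mature (351), with no statement of what this means; miR-1 and miR-133c are of type hairpin. The 4 genome-feature rows, 5.29% to 18.9% of the table, stayed out of library sizes and tests.

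Counts of 771 known and 108 predicted miRNAs were tested with edgeR 4.0.16 in R 4.3.3 (TMM, filterByExpr defaults, quasi-likelihood F test, two-sided, group only) with BH adjustment, and 365 known and 49 predicted rows passed the filter. Exact permutation tests used the 6 libraries, exact binomial intervals came from SciPy 1.17.1, and 0.5 was added to reads for log2 ratios. Alternatives were DESeq2 1.42.0, limma 3.58.1 on log2(TPM + 0.5), other scalings, filters and rows, a covariate, a replicate block and leaving out each library. The edgeR fit, but not the other steps, was tested on simulated data. Within groups, libraries differed far beyond sampling noise. Every member row is described; of the lists, members past the threshold and the 2 most abundant of the myogenesis list are named, with others chosen after their values were seen. Members and lists were chosen with earlier results of these data known.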

Additional observations from a re-analysis of the deposited data

How the results depend on the processing

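The count of 26 miRNAs past the threshold was 97 with DESeq2 and with library totals alone, 49 with upper-quartile factors, 55 with a minimum of 1 CPM, 59 with known miRNAs alone, 116 with limma on deposited TPM and 1 with the replicate block; with 1 library left out it ran from 1 to 148. The 1 member past the threshold was miR-133a. It was joined by miR-499 (2 members) with library totals alone and with limma on TPM. The number was 0 with no filter on low counts, with a minimum of 10 CPM (which miR-133a does not reach) and with the replicate block, and 0 to 1 with 1 library left out. The cause was not tested, beyond the rows and samples that each setting changes. The sum of the mir-133 family differed by -1.86 with no filter and -1.93 with the replicate block, where it missed the threshold, and by -2.23 to -1.78 with 1 library left out, where it passed without preadipocyte replicate 3 only; a minimum of 10 CPM left it untested. The difference of bta-miR-1 turned positive with library totals alone (0.41), with limma on TPM (0.43) and without preadipocyte replicate 3 (0.38), from a range of -0.58 to 0.38 with 1 library left out, and that of the mir-1 family sum turned to 0.39, 0.41 and 0.35 (range -0.61 to 0.35). The members' share of miRNA reads was 14.7 RPM higher in adipocytes (exact two-sided permutation p = 0.2), or 10.4 to 21.8 with 1 library left out. With miR-21-5p taken out of the total the difference was -10.8 RPM. Differences of ratios and of miR-206, miR-133b and miR-133c kept their sign in every alternative run. The labels do not tell whether replicate numbers pair the samples. Deviations from group means correlated at 0.0365, -0.308 and 0.0216 for same-numbered libraries and at -0.252 to 0.255 for different-numbered ones. With 3 libraries per group these values cannot settle it. With the replicate block miR-133a differed by -1.87 (edgeR BH-adjusted p = 0.125). Depth limits miR-206, miR-133b and miR-133c, with 34, 20 and 3 reads in all 6 libraries.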
